A study of Mus musculus with 8 samples.

Results

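The 9 genes described here encode the transcription factors that set the identity of the intestinal epithelium, namely the caudal homeobox factors Cdx1 and Cdx2, the nuclear receptors Hnf4a and Hnf4g, the Krüppel-like factors Klf4 and Klf5, the zinc finger factors Gata4 and Gata6, and the ETS-domain factor Elf3. They were chosen by name, as 9 of the 52143 genes for which a value was deposited, and not by their measured values. Where a symbol had several rows, the one of highest mean stood for it. A filter asked for 4 or more samples with a TPM of 1 or more, and 8 of the 9 genes passed it. TPM, a length-corrected unit, is the share of a library that a gene's transcripts take up per unit of their length, scaled to 1000000 per sample, so that levels of different genes can be compared within a sample.

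RNA was measured in the distal colon of 8 samples, 4 labelled Control and 4 labelled SiglecXII. All mice carried Cre-ERT, a recombinase that acts only in the presence of tamoxifen, under the promoter of Villin1, which is active in the epithelium of villi and crypts. The SiglecXII mice (SIGLEC12-Villin1-Cre-ERT) also carried 1 copy of human SIGLEC12 at the ROSA26 locus behind a floxed stop and a CAG promoter, and the Control mice (Villin1-Cre-ERT) were littermates without that allele. Both groups were female, received tamoxifen (10 mg/mL) on 5 consecutive days from 8 weeks of age, and were killed 7 days after the last dose, before any carcinogen. The question of the comparison was whether the presence of the human receptor alone changed these regulators. The human gene was not among the mouse genes measured, so the group labels were not checked against it here. The design text speaks of 3 mice per condition whereas 4 samples are listed in each group, and the study's methods mention technical replicate libraries. The p-values below therefore measure the spread between these samples, which may be partly technical.

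As background, Cdx2 and Cdx1 specify hindgut epithelium and hold it in its intestinal state. HNF4A and HNF4G bind the enhancers of enterocyte genes, many of them for lipid handling and the brush border, and can stand in for each other in part. KLF5 is made by dividing crypt cells whereas KLF4 marks cells that have stopped dividing and the goblet lineage, and both bind the same GC-rich boxes. GATA4 is restricted to the proximal small intestine, while GATA6 extends into ileum and colon. ELF3 is an epithelium-restricted ETS factor found in maturing enterocytes.

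The windows around the transcription start are shown for the 4 members whose windows in the RefSeq promoter set of GRCm38.p6 were used here, to set side by side the short motifs of intestinal factors that they hold. Each window holds 250 bases before and 50 bases after the start, 5′ to 3′ on the strand of the gene. Capitals mark the letters searched on both strands, which were AGATAA for GATA factors, TTTAT for CDX factors, GTTAAT for HNF1 factors, CAAAG for HNF4, CCACCC for Krüppel-like factors and AGGAAG for ETS factors. No base fell in more than 1 of these matches. Hnf4a has a pair of known promoters, and both are shown. The intervals are chr5:147307200-147307499 (minus strand) for Cdx2, chr1:135258423-135258722 (minus strand) for Elf3, chr2:163506607-163506906 and chr2:163546905-163547204 (plus strand) for the upstream and downstream starts of Hnf4a, and chr4:55532426-55532725 (minus strand) for Klf4.
Cdx2: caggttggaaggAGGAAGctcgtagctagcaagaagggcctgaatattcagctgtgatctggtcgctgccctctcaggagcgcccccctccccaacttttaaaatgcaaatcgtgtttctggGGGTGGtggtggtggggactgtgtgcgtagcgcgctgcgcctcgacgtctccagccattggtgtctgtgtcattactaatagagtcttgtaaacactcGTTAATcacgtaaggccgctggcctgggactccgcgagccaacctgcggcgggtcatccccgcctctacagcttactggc
Elf3: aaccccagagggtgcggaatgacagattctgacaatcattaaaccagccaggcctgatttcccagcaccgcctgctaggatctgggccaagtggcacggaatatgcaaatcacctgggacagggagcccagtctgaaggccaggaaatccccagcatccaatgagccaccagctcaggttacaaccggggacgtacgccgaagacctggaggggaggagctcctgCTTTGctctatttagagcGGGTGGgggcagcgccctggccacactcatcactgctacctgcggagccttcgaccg
Hnf4a, upstream start: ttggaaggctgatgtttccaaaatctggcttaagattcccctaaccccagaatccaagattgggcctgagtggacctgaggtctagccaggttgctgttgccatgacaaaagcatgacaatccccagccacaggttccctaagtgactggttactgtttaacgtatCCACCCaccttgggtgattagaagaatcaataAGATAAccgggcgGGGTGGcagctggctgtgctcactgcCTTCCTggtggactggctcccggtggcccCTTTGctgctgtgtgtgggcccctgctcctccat
Hnf4a, downstream start: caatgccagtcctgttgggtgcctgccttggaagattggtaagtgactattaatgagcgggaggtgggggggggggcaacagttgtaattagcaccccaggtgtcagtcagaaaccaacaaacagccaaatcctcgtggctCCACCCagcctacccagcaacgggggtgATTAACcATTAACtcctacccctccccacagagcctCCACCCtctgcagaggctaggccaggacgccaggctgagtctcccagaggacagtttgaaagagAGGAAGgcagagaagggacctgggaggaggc
Klf4: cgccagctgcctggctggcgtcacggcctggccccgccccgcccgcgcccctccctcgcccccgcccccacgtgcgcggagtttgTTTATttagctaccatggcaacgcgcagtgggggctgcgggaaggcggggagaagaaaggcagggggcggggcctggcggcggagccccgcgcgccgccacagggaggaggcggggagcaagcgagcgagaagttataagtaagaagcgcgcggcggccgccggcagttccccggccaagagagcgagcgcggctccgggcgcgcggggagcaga

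The 5 windows differed in their letters. The upstream Hnf4a window was the only one of the 5 with the GATA letters, 52 bases before the start, and it also held the HNF4 letters, the ETS letters and a pair of CCACCC matches. The downstream Hnf4a window held the HNF1 letters at 2 places, 81 and 74 bases before the start, and the Cdx2 window held them once, 30 bases before it. The Elf3 window held the HNF4 letters 25 bases and CCACCC 7 bases before the start. Of the letters searched, the Klf4 window held only those of CDX factors, 165 bases before the start, and no CCACCC. Its GC content was 74.3%, against 54.0% to 59% in the other 4 windows and a median of 52.7% over all 32851 windows of the set. Short motifs are common. Of the 32851 windows, 11.2% held the GATA letters, 40.0% the CDX letters, 7.1% the HNF1 letters, 53.9% the HNF4 letters, 31.5% CCACCC and 35.4% the ETS letters. A match is a description of the sequence and not a binding site. No window was found for Hnf4g, Klf5 and Gata4, and those of Cdx1 and Gata6 were not used here.

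In the control colon 5 members stood at one high level, 3 at a level at least 12.7 times lower, and Gata4 near 0. Elf3 was the highest, with a mean of 423 ± 87.8 TPM in Control (SD, n = 4), and exceeded 97.5% of the 13164 genes tested. Cdx1 followed with 369 ± 44.0, Klf4 with 347 ± 71.0, Hnf4a with 315 ± 51.1 and Klf5 with 269.8 ± 51.2 TPM. The control ranges of each of these 5 overlapped with those of its neighbours in the order, and adjacent means differed by at most 1.17 times, so the steps of the order within this upper tier were smaller than the spread between samples. Within a sample, however, Hnf4a exceeded Klf5 in 8 of 8. From Klf5 to Gata6 the mean dropped 12.7 times with no overlap. Gata6 had 21.3 ± 5.08 TPM, Hnf4g 15.9 ± 4.25 and Cdx2 9.31 ± 4.08 TPM in Control, and the control ranges of neighbours again overlapped. Gata6 exceeded Hnf4g in 6 of 8 samples and Hnf4g exceeded Cdx2 in 7 of 8.

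**Figure D1:**
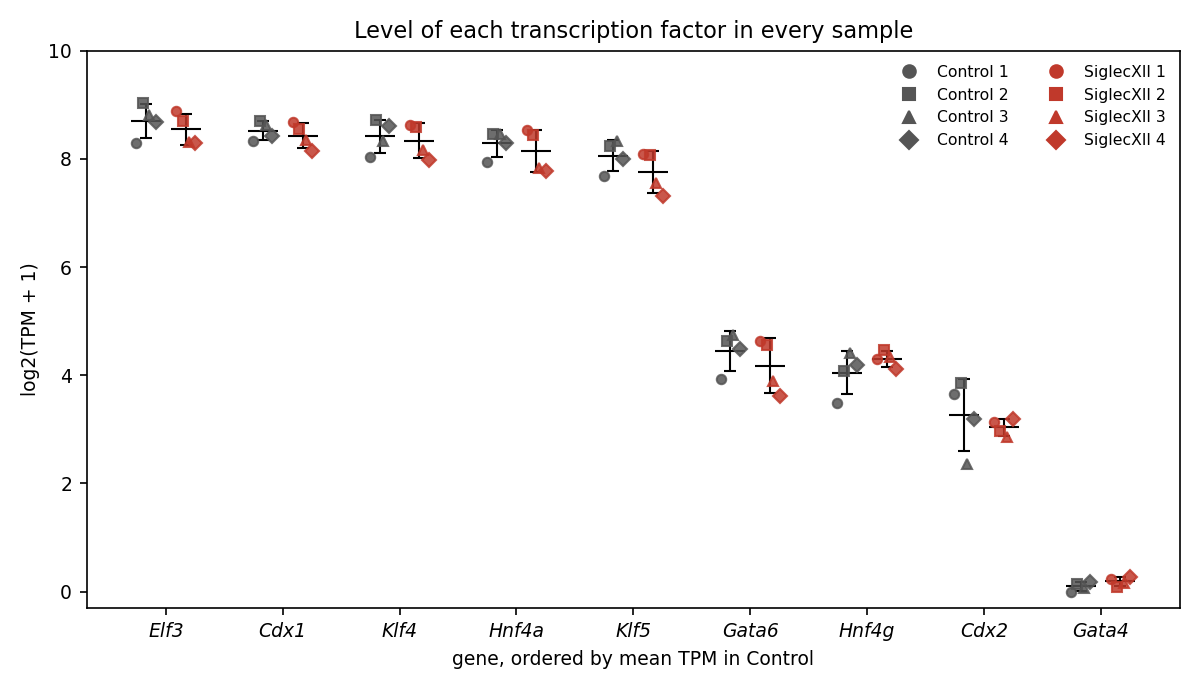
Level of each of the 9 genes in log2(TPM + 1), ordered by mean TPM in Control, with 1 point per sample (grey Control, red SiglecXII) and the mean with its SD (n = 4) in black. Elf3, Cdx1, Klf4, Hnf4a and Klf5 lie together above Gata6, Hnf4g and Cdx2, Gata4 lies near 0, and the groups overlap in each of the 8 genes that passed the filter.

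The upper tier held both Krüppel-like factors, Elf3 and 1 each of the caudal and HNF4 pairs. Cdx1 (ENSMUSG00000024619) was measured at 322, 416, 396 and 343 TPM in Control 1 to 4 and at 409, 376, 325 and 281 TPM in SiglecXII 1 to 4. It was the steadiest of the 8 filtered members, with a highest sample 1.48 times the lowest, and the groups overlapped. Elf3 (ENSMUSG00000003051, chr1:135253575-135258568, minus strand) was measured at 313, 524, 448 and 409 TPM in Control and at 471, 414, 315 and 314 TPM in SiglecXII. Control 1, SiglecXII 3 and SiglecXII 4 were low and nearly equal, and the other samples of both groups were higher. Of the 31-base stretches of Elf3 transcripts, 6.14% also occur in the antisense gene Gm26642, which stayed at or below 0.209 TPM.

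Hnf4a (ENSMUSG00000017950, chr2:163506808-163572910, plus strand) was measured at 244, 353, 352 and 312 TPM in Control and at 372, 345, 227 and 219 TPM in SiglecXII. The lowest 3 samples were again Control 1, SiglecXII 3 and SiglecXII 4. These values sum the transcripts of both promoters. An antisense gene, Hnf4aos, overlaps the locus and stayed at or below 0.201 TPM.

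Klf4 (ENSMUSG00000003032, chr4:55527143-55532466, minus strand) was measured at 261, 419, 319.5 and 390.1 TPM in Control and at 394, 383, 286 and 251 TPM in SiglecXII. Klf5 (ENSMUSG00000005148, chr14:99298691-99315036, plus strand) was measured at 205, 300.1, 319.9 and 254 TPM in Control and at 271, 268, 188 and 158 TPM in SiglecXII. Both Krüppel-like factors were low in Control 1, SiglecXII 3 and SiglecXII 4, and the groups overlapped in each. About 2.0% of the 31-base stretches of each (2.0% for Klf4 and 1.91% for Klf5) also occur in another gene.

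In the lower tier the members did not share a profile. Gata6 (ENSMUSG00000005836) was measured at 14.2, 23.8, 25.9 and 21.3 TPM in Control and at 24.0, 22.6, 13.9 and 11.2 TPM in SiglecXII. It followed the upper tier in being lowest in Control 1, SiglecXII 3 and SiglecXII 4. A gene on the opposite strand, 1010001N08Rik, overlaps it and reached 10.5 TPM. Of the 6468 stretches of Gata6 transcripts searched as for Elf3, 66 (1.02%) also occur in another gene, 63 of them in 1010001N08Rik. How strand was used in the counting is not given in the sources used here. Reads from these shared stretches may therefore not be told apart.

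Hnf4g (ENSMUSG00000017688, chr3:3508030-3658052, plus strand) was measured at 10.2, 16, 20.4 and 17.2 TPM in Control and at 18.8, 21.3, 19.1 and 16.4 TPM in SiglecXII. Control 1 was low, and SiglecXII 3 and 4 were not. A microRNA gene, Gm23237, lies in the locus on the same strand and reached 15.9 TPM. Cdx2 (ENSMUSG00000029646, chr5:147300805-147307270, minus strand) was measured at 11.6, 13.4, 4.16 and 8.09 TPM in Control and at 7.81, 6.82, 6.26 and 8.14 TPM in SiglecXII. Its control samples spanned 3.22 times, the widest range of the 8 filtered members, with Control 3 lowest and Control 2 highest, while its SiglecXII samples lay close together in between.

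Gata4 (ENSMUSG00000021944, chr14:63198922-63271692, minus strand), the factor of the proximal small intestine, was listed at 0 in Control 1 and at 0.103, 0.0479 and 0.124 TPM in the other Control samples, and at 0.182, 0.0644, 0.112 and 0.212 TPM in SiglecXII. The groups overlapped, and a fit without the filter gave a difference of 0.10 ± 0.05 (SE) on the log2(TPM + 1) scale with an adjusted p of 0.6816 by limma. The depth behind values this low is unknown, because TPM keeps no record of the number of reads.

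Between the groups no member was called. At an adjusted p of at most 0.05 (limma, Benjamini-Hochberg adjustment over 13164 genes) 0 of 8 tested members were called, against a background of 5 genes or 0.038%. At an unadjusted p of at most 0.05 the count was also 0 of 8, against 8.87% of all genes, and in 0 of 8 did the groups of samples not overlap, against 5.11%. Adjusted p ran from 0.5397 (Klf5) to 0.8382 (Klf4). The differences, SiglecXII minus Control in log2(TPM + 1), lay below 0 for 7 members and above 0 for Hnf4g, with a median of -0.15. The median of all genes tested was also -0.15 and 78.1% of them lay below 0, so the split of the members was that of the whole table.

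With all 8 samples the differences farthest from 0 were those of Klf5 and Gata6 downwards and of Hnf4g upwards, and each rested in part on 1 sample. Klf5 differed by -0.30 ± 0.21 (SE), with a 95% interval from -0.77 to 0.16. Gata6 differed by -0.27 ± 0.27 (95% interval -0.87 to 0.34) and Hnf4g by 0.26 ± 0.19 (-0.17 to 0.70). The narrowest of the 8 intervals was that of Cdx1, which differed by -0.09 (-0.40 to 0.21). Klf4 differed by -0.08 (-0.52 to 0.35) and Hnf4a by -0.14 (-0.60 to 0.31). Elf3 differed by -0.16 (-0.58 to 0.26), and Cdx2, with its uneven controls, by -0.22 (-0.89 to 0.44). Without SiglecXII 4 the difference of Klf5 was -0.15 and that of Gata6 -0.080, without Control 1 that of Hnf4g was 0.077, and without Control 3 that of Cdx2 was -0.52. With all 8 samples on the scale as deposited, a difference of 1 log2 unit lay outside all 8 intervals, and 0 lay inside all of them. Intervals under other scalings of the samples are not given here.

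**Figure D2:**
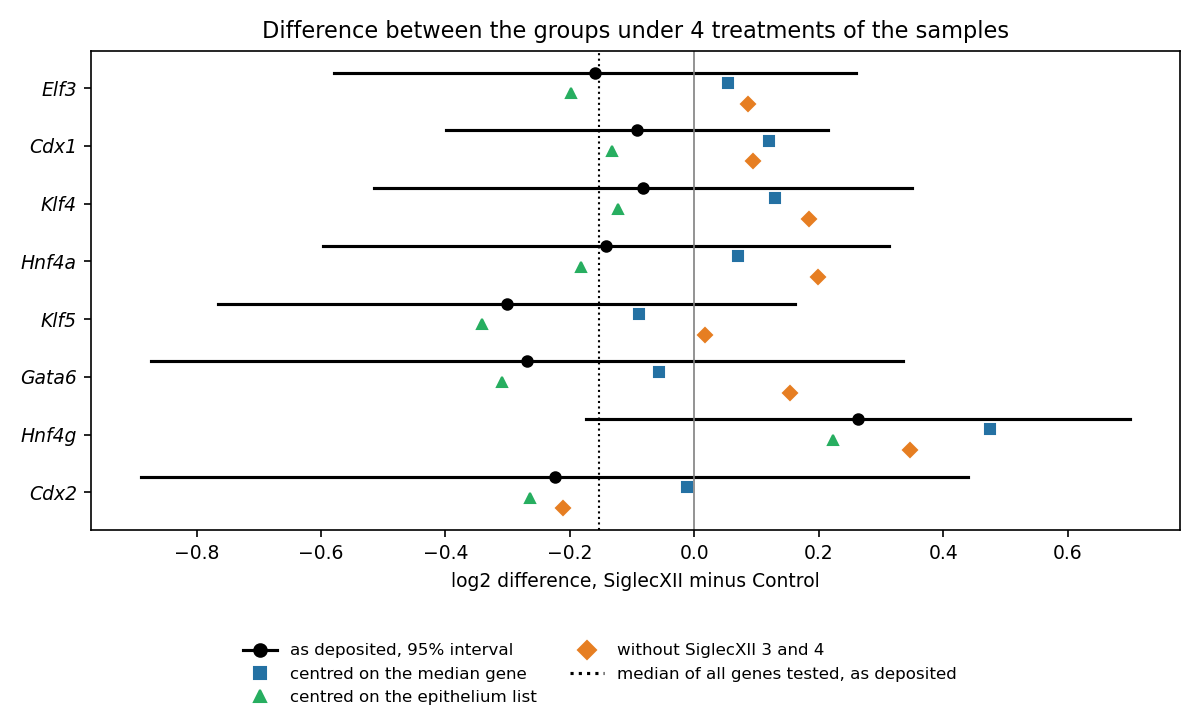
Log2 difference between SiglecXII and Control for the 8 members that passed the filter, as deposited with its 95% interval (black), after centring each sample on its median gene (blue), after centring on the epithelium list (green) and without SiglecXII 3 and 4 (orange). All 8 black intervals cross 0, and the sign of most members depends on the scaling or on these 2 samples.

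The direction of the differences depended on how the samples were put on one scale. Centring each sample on its median gene raised the differences of all genes by 0.213 and turned the split to 3 members below and 5 above 0, with 38.5% of all genes below 0. Quantile normalization gave 6 below and 2 above, with 46.3% of all genes below 0. Relative to the mean of 10 epithelium genes the split stayed at 7 below and 1 above, and Klf5 then differed by -0.34 with an unadjusted p of 0.02717 and an adjusted p of 0.2547 by limma. Under that centring 83.4% of all genes lay below 0 and 19.0% had an unadjusted p of at most 0.05. Hnf4g lay above 0 under each of these scalings, though not without the 3 samples of most squamous signal given below (-0.0024), and stood at 0.48 after median centring (unadjusted p of 0.01966, adjusted p of 0.4588). Over the alternatives the adjusted p of Klf5 ran from 0.2547 to 0.9972 and that of Hnf4g from 0.3442 to 0.9958.

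Across samples, 6 of the 8 filtered members shared their lowest values. The same 3 samples, Control 1, SiglecXII 3 and SiglecXII 4, were the lowest 3 of the 8 in Elf3, Cdx1, Klf4, Hnf4a, Klf5 and Gata6. This pattern is common in the table, since 4415 of the 13164 genes (33.5%) had these samples lowest. In Gata6 they lay at -0.38, -0.41 and -0.70 log2 units from the mean of the 8 samples, and the other 5 between 0.17 and 0.44. Hnf4g shared the low value of Control 1 (-0.69) but not those of the SiglecXII pair (0.15 and -0.06), and Cdx2 ran its own course, with 0.50 in Control 1 and -0.78 in Control 3. Without SiglecXII 3 and SiglecXII 4, an alternative added after the data had been seen, 1 member lay below 0 and 7 above, with 49.1% of all genes below 0, and the median of all genes moved from -0.15 to 0.00.

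**Figure D3:**
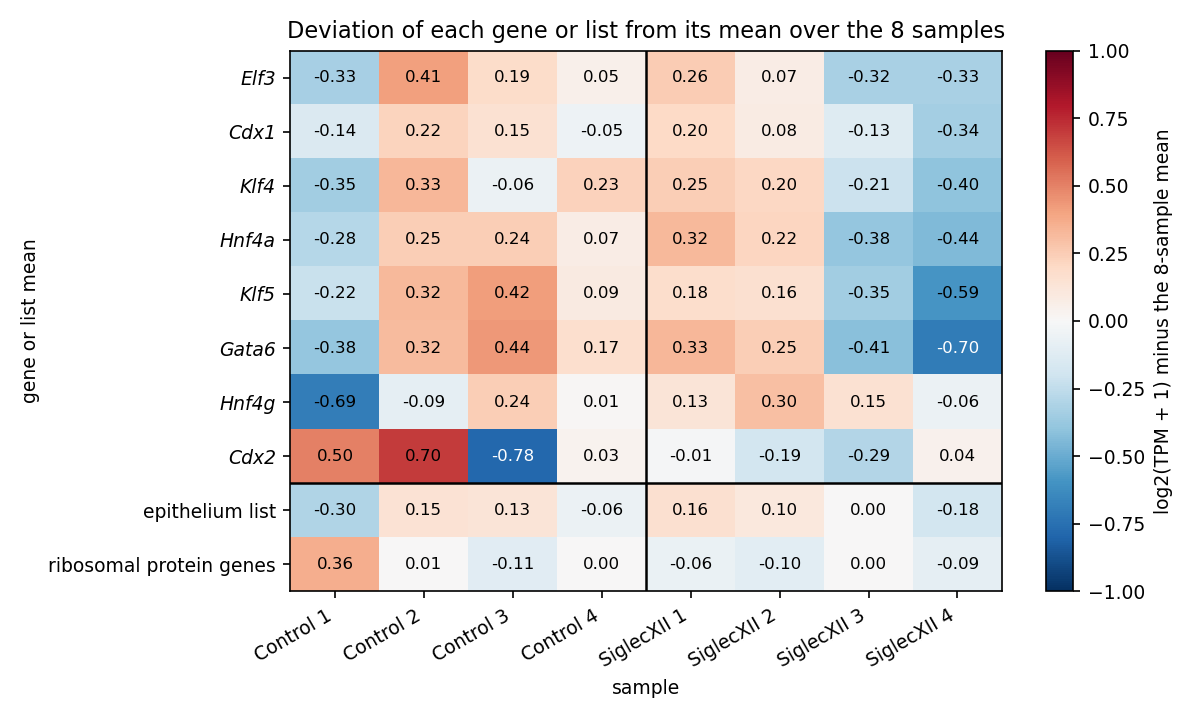
Deviation of each filtered member from its own mean over the 8 samples, in log2(TPM + 1), with the mean of 10 epithelium genes and of 77 ribosomal protein genes in the lowest rows. Elf3, Cdx1, Klf4, Hnf4a, Klf5 and Gata6 are low (blue) in Control 1, SiglecXII 3 and SiglecXII 4, Hnf4g only in Control 1 among these, and Cdx2 varies mostly within Control, from -0.78 to 0.70.

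Of these 3 samples Control 1 stood apart in the means of the epithelium and ribosomal protein genes, and SiglecXII 3 in neither. The mean of the 10 epithelium genes deviated by -0.30 in Control 1, 0.00 in SiglecXII 3 and -0.18 in SiglecXII 4, while ribosomal protein genes deviated by 0.36 in Control 1, 0.00 in SiglecXII 3 and -0.09 in SiglecXII 4. In other measures SiglecXII 3 and SiglecXII 4 were the extremes. They had the fewest genes at a TPM of 1 or more, 12827 and 12748 against 13132 to 13715 in the other samples. Their 10 highest genes held the largest shares of TPM, 19.6% and 20.6%. That share was 11.5% in Control 1, the smallest, and at most 18.7% in the remaining samples. The part of all these measures in the levels of the members was not tested. In bulk tissue fewer cells of a type and less RNA per cell cannot be told apart.

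Because a ratio within 1 sample does not depend on how that sample is scaled, related members were also compared with each other. Hnf4a exceeded Hnf4g by 23.9, 22.1, 17.2 and 18.2 times in Control 1 to 4 and by 19.8, 16.2, 11.9 and 13.4 times in SiglecXII 1 to 4. The 3 lowest ratios were SiglecXII samples, and SiglecXII 1 lay among the controls. The log2 ratio tested was the difference of log2(TPM + 1). Because of the added 1 it is only near the log2 of these ratios, and only nearly free of the scaling. It was 4.25 ± 0.20 (SD, n = 4) in Control and 3.84 ± 0.32 in SiglecXII, a difference of -0.41 with p = 0.1143 (two-sided exact permutation of 70 labelings, for which the smallest possible p is 0.0286). With a pseudocount of 0.1 in place of 1 the difference was -0.42 (exact permutation p = 0.1143).

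Klf4 exceeded Klf5 by 1.27, 1.40, 0.999 and 1.53 times in Control and by 1.46, 1.43, 1.52 and 1.58 times in SiglecXII. The SiglecXII samples were close together, and in Control 3 the pair was level. The log2 ratio was 0.36 ± 0.26 in Control and 0.58 ± 0.07 in SiglecXII (difference 0.22, exact permutation p = 0.1429). Cdx1 exceeded Cdx2 by 27.7, 31, 95.2 and 42.4 times in Control and by 52.3, 55.2, 51.9 and 34.6 times in SiglecXII. The control ratios enclosed all 4 SiglecXII ratios, and the difference of the log2 ratios was 0.13 (exact permutation p = 0.7429). None of the 3 ratios passed 0.05, and adjusted over the 3 tests the p-values were 0.2144 for the Hnf4 and Klf pairs and 0.7429 for the Cdx pair (Benjamini-Hochberg). The ratio of Gata4 to Gata6 was not tested because Gata4 had failed the filter.

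**Figure D4:**
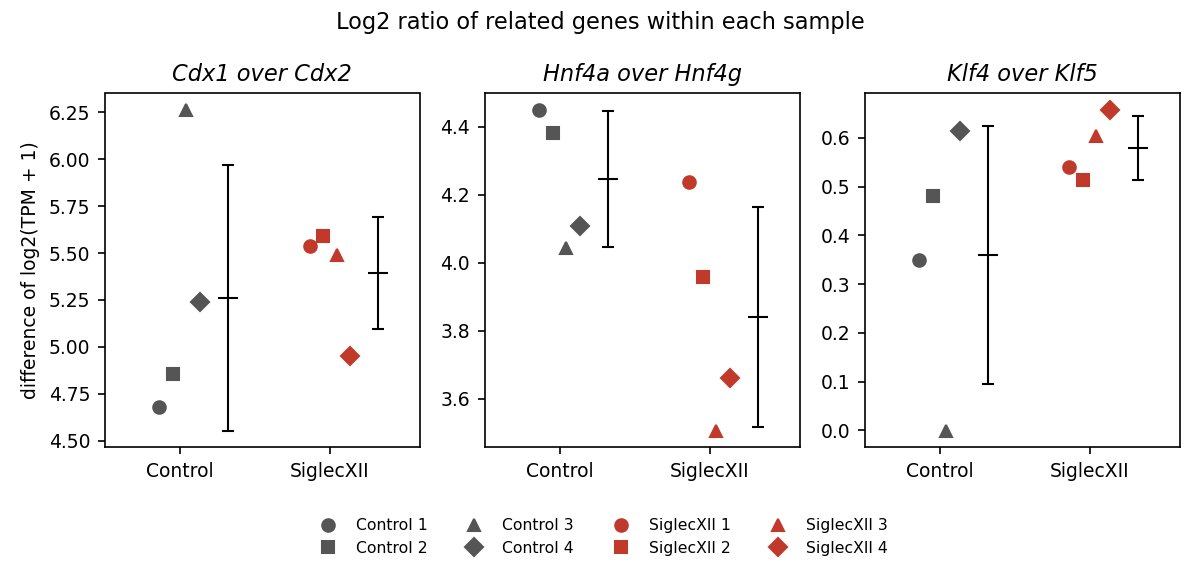
Log2 ratio of related genes within each sample, as the difference of their log2(TPM + 1), with 1 point per sample and the mean with its SD (n = 4) beside each group. Hnf4a over Hnf4g was 4.25 in Control and 3.84 in SiglecXII, Klf4 over Klf5 was 0.36 and 0.58, and the groups overlap in all 3 panels. The vertical axes differ and do not start at 0.

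The genes whose profile over the 8 samples was most like that of a member were found by Pearson's r of log2(TPM + 1), as a description. Gata6 was nearest to Camta2 and Myo1d (r = 0.998 for both) and Klf5 to Ints3 and Rrbp1 (0.996 for both). Hnf4a was nearest to Mgrn1 (0.997) and Mfsd6 (0.996), and Cdx1 to Sdcbp (0.995) and Papd4 (0.994). Elf3 was nearest to Dll1 (0.988) and Ift122 (0.986), and Klf4 to Shoc2 (0.985) and Pptc7 (0.977). Such values are frequent for these 6, since between 4.26% (Klf4) and 19.9% (Gata6) of all genes tested had an r over 0.9 with them. They were rare for Hnf4g, with 55 genes led by Clmp (0.980) and Nrap (0.974), and for Cdx2, with 7 genes led by Mrpl24 (0.959) and Phospho2 (0.946).

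Relatives of the members in the same families were measured next. Of 21 relatives 15 passed the filter and 0 were called. At unadjusted p of at most 0.05 by limma 0 of the 15 passed, against 8.87% of all genes. They lay below 0 in 11 and above 0 in 4 cases, with a median difference of -0.21 beside -0.15 for all genes. Cdx4, the third caudal factor, was listed at 0 in all 8 samples, and Gata1, Gata2, Gata3, Gata5 and Klf15 also failed the filter. Ehf, which belongs to the same epithelium-specific ETS subfamily as Elf3 and is named here after its values were seen, reached 111 to 127 TPM in Control and 57.7 to 129.7 TPM in SiglecXII, with SiglecXII 3 and 4 lowest at 66.0 and 57.7 TPM. Klf6, an immediate early factor, was measured at 98.6 ± 21.7 TPM in Control and 109 ± 14.6 TPM in SiglecXII, and Klf2, best known from endothelium and lymphocytes, at 6.54 ± 2.61 and 8.77 ± 2.71 TPM. Elf2 was measured at 22.1 ± 1.16 and 18.1 ± 3.42 TPM.

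Elf5, an ETS factor of keratinised and glandular epithelia, stood apart within its group. It was measured at 34.7, 4.37, 2.70 and 14.4 TPM in Control and at 4.28, 7.66, 1.52 and 2.08 TPM in SiglecXII. Control 1, Control 4 and SiglecXII 2 were highest, and these 3 samples were also the highest in keratin 14 (Krt14), a keratin of the basal layer of squamous epithelium, at 5674, 3252 and 1652 TPM against 119.9 to 276 TPM in the other 5. Elf5 differed by -1.24 ± 0.70 (SE, adjusted p = 0.5147 by limma).

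Among 24 other regulators of the epithelium 23 passed the filter and 0 were called. They lay below 0 in 19 and above 0 in 4 cases (median -0.19). At unadjusted p of at most 0.05, 1 of the 23 passed, against 8.87% of all genes. That gene was Ascl2, a WNT-driven factor of crypt base stem cells, measured at 15.8, 14.3, 9.08 and 9.45 TPM in Control and at 7.82, 4.91, 5.05 and 4.73 TPM in SiglecXII. All 4 SiglecXII samples were below all 4 Control samples. It was the 1 gene of the 23 whose groups did not overlap, against 5.11% of all genes. Ascl2 differed by -0.98 ± 0.22 (unadjusted p = 0.001543, adjusted p = 0.5147 by limma), so it was not called over all genes. Myb, a factor of crypt progenitors, was measured at 45.0 ± 5.85 and 32.1 ± 11.6 TPM. The Notch target Hes1, which holds cells in the absorptive lineage, was measured at 92.1 ± 10.4 and 109.6 ± 13.9 TPM, and the secretory factor Gfi1 at 2.53 ± 0.652 and 2.94 ± 0.247 TPM.

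The lists of downstream genes gave no called gene either. Of 20 genes known as targets of these factors 13 passed the filter. At unadjusted p of at most 0.05 by limma 0 of the 13 passed, against 8.87% of all genes. They lay below 0 in 9 and above 0 in 4 cases, with a median of -0.08. Guca2a, a peptide of colonocytes, was measured at 650.0 ± 115 TPM in Control and 693 ± 95.7 TPM in SiglecXII, and the fatty acid carrier Fabp2 at 14.7 ± 2.04 and 16.7 ± 2.21 TPM. The junction gene Cldn15 was measured at 25.8 ± 6.90 and 19.5 ± 1.52 TPM, and the lipoprotein gene Apob at 3.64 ± 2.02 and 1.88 ± 0.883 TPM. Several HNF4 and GATA4 targets of the small intestine were near 0 in this tissue. Apoa4 was listed at 0 in all 8 samples, lactase (Lct) did not exceed 0.122 TPM and sucrase-isomaltase (Sis) did not exceed 0.256 TPM.

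The labelled tissue was checked against its markers. All 6 colon markers passed the filter, with 5 below and 1 above 0 and none called, among them carbonic anhydrase 1 (Car1) at 2527 ± 440.2 TPM in Control and 2552 ± 311 TPM in SiglecXII, and the chloride exchanger Slc26a3 at 490.1 ± 55.2 and 429 ± 87.8 TPM. Of 6 markers of the small intestine 3 passed, with Fabp6 at 27.6 ± 2.41 and 29.9 ± 3.16 TPM the highest. The 10 epithelium genes together held 16054 to 21234 TPM in Control and 17293 to 21045 TPM in SiglecXII, and 7 of them lay above 0 and 3 below, with a median of 0.06.

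Other cell types were present and their marker levels differed between samples. All 10 smooth muscle genes lay below 0 (median -0.66), 5 of them at unadjusted p of at most 0.05 (8.87% of all genes) and none called by limma. The sum of the list ran from 698 to 1106 TPM in Control and from 334 to 712 TPM in SiglecXII, with SiglecXII 4 lowest. The 7 squamous genes were a list added after the data had been seen. Their sum ran from 1280 to 21823 TPM in Control and from 767 to 5316 TPM in SiglecXII. It was highest in Control 1, Control 4 and SiglecXII 2, and lowest in SiglecXII 3 and SiglecXII 4 (767 and 882 TPM). The sums of 3 sparse lists were lower in all 4 SiglecXII samples than in any Control sample. Of all genes tested, 78.1% lay below 0 and 5.11% did not overlap between the groups. Only 1 of 7 immune, 1 of 5 endothelial and 0 of 6 neuronal and glial genes passed the filter. The immune gene that passed, Jchain, held 11.9 of the 18.0 TPM in Control 1, and its groups overlapped. Immune genes summed to 3.70 to 18.0 TPM in Control and 1.76 to 3.08 TPM in SiglecXII, with Cd79a listed at 0 in SiglecXII 3. Endothelial genes summed to 2.50 to 4.67 TPM and 1.79 to 2.41 TPM, and neuronal and glial genes to 1.49 to 1.76 TPM and 1.04 to 1.39 TPM. These sums were not tested. Adipocyte genes summed to at most 5.84 TPM. Fibroblast genes summed to between 12.7 and 73.9 TPM. Pecam1, the adhesion molecule of endothelium, was low throughout, at 2.16 ± 0.287 TPM in Control and 1.09 ± 0.0812 TPM in SiglecXII, and the groups did not overlap (unadjusted p = 0.0009731, adjusted p = 0.5147 by limma). Without Control 1, Control 4 and SiglecXII 2, the 3 samples with the most squamous signal, all 8 members lay below 0 (median -0.35), as did 80.5% of all genes (median -0.24), 0 members and 4 genes were called, and Klf5 differed by -0.62 (unadjusted p = 0.02776, adjusted p = 0.491 by limma). The part of squamous, muscle and these other cells in the levels of the members was otherwise not tested.

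**Figure D5:**
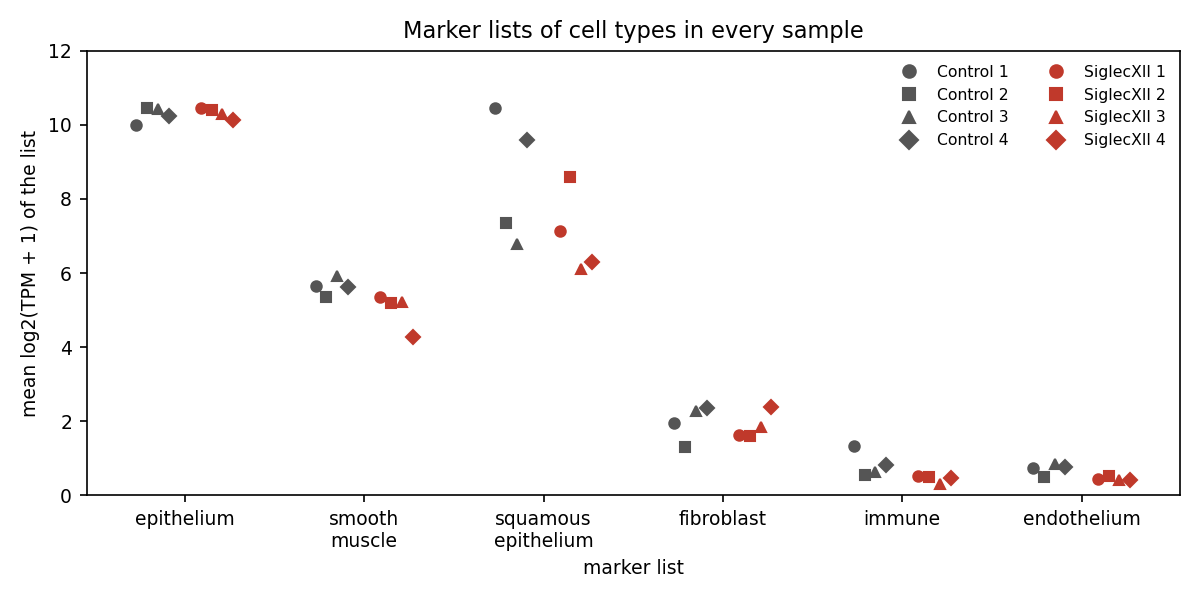
Mean log2(TPM + 1) of 6 marker lists in each sample (grey Control, red SiglecXII). The epithelium list lies between 10.0 and 10.5 in all 8 samples, the squamous list spreads from 6.11 to 10.5 with Control 1, Control 4 and SiglecXII 2 highest, and smooth muscle is lowest in SiglecXII 4.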

How the data were processed

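Distal colon RNA was analysed in 4 Control and 4 SiglecXII samples. The authors deposited log2(TPM + 1) per gene and sample, with no adjustment between samples. The submitters' processing notes name kallisto 0.45.0 and GRCm38, whereas the study's methods name another kallisto version, a human build and count-based tests. The deposited identifiers were mouse, and 98.3% of them are in GENCODE M21. TPM sums to 1000000 in each sample, so neither the depth nor a counting error is known. The study's methods name a stranded library kit, which differs from the kit that the labels name.

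The 13164 genes that reached a TPM of 1 in 4 or more samples were compared by linear models in limma 3.58.1 (R 4.3.3, moderated variance with a mean trend) with Benjamini-Hochberg adjustment over all of them, and called at an adjusted p of at most 0.05. The scale of the fold changes, log2(TPM + 1), understates those of low genes. On simulated data 166 of 200 altered genes were recovered (72 of 100 at a log2 change of 1), with 6 false among 172 calls. The simulated noise was drawn independently for each gene. In the measured samples 33.5% of genes shared the same 3 lowest samples, so these counts may not hold for them. Within-sample ratios were compared by two-sided exact permutation (Python 3.11.15). A further 718 rows repeated a symbol, and there the highest mean decided. The members, the gene lists and the tests were chosen with earlier results of these data known. Named genes were all members, up to 2 genes per list and direction with the smallest p, genes at 0, and the 2 genes most like each member. Krt14, Ehf, Lct, Sis and the squamous list were added later, with their values in view. Some genes that the rule names are not reported here. The transcripts of the members were searched for 31-base stretches shared with other genes. Alternatives were no filter or a TPM of 5, a pseudocount of 0.1, quantile normalization, centring on the median gene or on the epithelium list, array weights, the sample number as a block, and leaving out samples. No sample held the values of another (highest correlation 0.987), which does not show that each came from its own mouse.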

Additional observations from a re-analysis of the deposited data

Results flagged for a closer look

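In groups of 4 samples, 5 of 92 groups examined held a sample whose gap to the nearest other exceeded the 95% critical value of Dixon's test, and chance flags about 1 in 20, which here is 4.6. The log2 ratio of Cdx1 to Cdx2 was low in SiglecXII 4, at 4.95 (gap 0.835 of the range). Ascl2 was high in SiglecXII 1, at 3.14 log2(TPM + 1), with a gap of 0.874. In SiglecXII 4 the smooth muscle genes Des and Synm were low, at 5.03 and 1.96 log2(TPM + 1) with gaps of 0.832 and 0.941, and so was the mean of the smooth muscle list, at 4.26 with a gap of 0.851.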

How the results depend on the processing

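No member was called in any of 18 alternatives (adjusted p from 0.2547 to 0.9984 by limma), and 127 of 144 member differences kept their sign. The other 17 turned and the cause was not tested. Median centring gave 0.12 for Cdx1, 0.071 for Hnf4a, 0.13 for Klf4 and 0.054 for Elf3, quantile normalization 0.0025 for Cdx2, and array weights 0.040 for Hnf4a and 0.028 for Klf4. With single samples left out, Cdx1 ran from -0.17 to 0.0045 (the latter without SiglecXII 4) and Klf4 from -0.21 to 0.038 (above 0 without SiglecXII 4, and at 0.015 without Control 2). Without both SiglecXII 3 and 4 the values were 0.095 for Cdx1, 0.20 for Hnf4a, 0.18 for Klf4, 0.018 for Klf5, 0.15 for Gata6 and 0.086 for Elf3. Without Control 1, Control 4 and SiglecXII 2, Hnf4g stood at -0.0024 and the ratio of Cdx1 to Cdx2 at -0.23. These last 2 sets were left out after the data had been seen. Members at unadjusted p of at most 0.05 numbered 1 in place of 0 with quantile normalization, median centring, epithelial centring and array weights, where 8.45%, 10.8%, 19.0% and 14.1% of all genes passed, and without Control 1, Control 4 and SiglecXII 2 (5.9% of all genes), and 0 to 1 with single samples left out (1 without Control 3, Cdx2 at -0.52). Genes called in the whole table numbered 5, but 3 with no filter or a TPM of 5, 18 with array weights, 2 without SiglecXII 3 and 4, and 2 to 6 with single samples left out (3 without SiglecXII 1 or 4, 2 without SiglecXII 2). With single samples left out, the ratio of Cdx1 to Cdx2 ran from -0.061 to 0.47, Hnf4a to Hnf4g from -0.54 to -0.29 and Klf4 to Klf5 from 0.098 to 0.30. The second reached an exact permutation p of 0.02857 without SiglecXII 1 and the third without Control 4, the smallest possible for 4 against 3 samples. In both cases the sample left out was one whose ratio lay within the range of the other group, so nothing is concluded from these p-values. The shared sample numbers showed no consistent pairing (correlations of deviations -0.165, -0.204, 0.103 and -0.00249 for numbers 1 to 4). Only number 3 passed the limit of 0.1 set for a pair. Such correlations cannot exclude that samples shared a litter or a batch. With a replicate block, 4 genes were called in the whole table and 0 members, and the exact permutation p of the paired ratios was 0.875, 0.125 and 0.125, where 0.125 is the smallest that 4 pairs allow. With 4 samples a group and no known depth, the intervals above set what could be seen.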
